A study of Mus musculus with 5 samples.

Results

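The cells described here were T and natural killer lymphocytes captured with the other cells of the tibialis anterior, a muscle of the lower hindlimb, in very old mice. A cell barcode, the sequence that tags all transcripts of 1 captured cell, was taken as a T or natural killer barcode, chosen by its own UMI counts, when it met 6 conditions. First, 200 or more genes were detected in it and no more than 10% of its transcripts were mitochondrial. It held at least 1 unique molecular identifier (UMI, 1 counted transcript) of Ptprc, the pan-leukocyte marker CD45, and at least 1 UMI of each of 3 or more of Cd3e, Cd3g, Trbc2, Lck, Nkg7, Klrd1, Ncr1 and Gzma. It held at most 4 UMIs of the macrophage complement genes C1qa, C1qb and C1qc together, and at most 1 UMI of the endothelial gene Cdh5 and the fibroblast gene Pdgfra together. Of 56922 deposited barcodes 50460 passed the limits on genes and mitochondrial transcripts, and 244 of these were members: 23 and 46 in the libraries of the 2 frail mice and 20, 44 and 111 in those of the 3 control mice.

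T cells recognise peptides through a clonotypic receptor that signals through the CD3 chains. Most carry the alpha beta form, with Cd8a and Cd8b1 or Cd4 as coreceptor, and a minority the gamma delta form, whose constant chain is encoded by Trdc. Natural killer cells lack CD3, read the loss of MHC class I through inhibitory receptors of the Klra family, and kill with perforin and granzymes. In aged tissues such cells are known as a source of interferon gamma, which raises antigen presentation in neighbouring cells.

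Every library came from a female C57BL/6 mouse of 26 months, and no genotype or treatment other than the frailty grouping was given. Mice with a frailty index, a score over a list of health deficits, of 0.18 or more were the frail group and those below it the controls, so that the study asked how muscle cells differ with frailty at 1 age. Whole-cell suspension after enzymatic digestion is described for the series, whereas the protocol attached to the samples speaks of sorted nuclei. Which of these applied to the libraries is not settled here. Each library is 1 mouse, so p-values measure the spread between these mice.

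The members of a library held 126878 to 592606 UMIs in all, and the median member held 4408 to 6454 UMIs and 1974 to 2280 genes. No barcode sequence occurred among the members of more than 1 library, while pairs of libraries shared 17 to 35 retained barcodes. Control 3 stood apart from the other 4 libraries: it held the most members, and it alone held transcripts of the basal keratinocyte gene Krt14, with 29358 UMIs over all its barcodes against 0 in every other library. Many results that rest on control 3 are therefore also given without it, or without the gamma delta barcodes that set it apart. Where a level is given over all members only, the value of control 3 includes those barcodes. Between 5 and 11 members per library were just inside the gene threshold, with exactly 3 of the 8 genes, and 4 to 8 barcodes were just outside it, with 2. Between 2 and 22 barcodes per library met the gene count but were stopped by the limit on Cdh5 and Pdgfra alone.

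The label was checked against markers. Levels are given as CPM, the UMIs of a gene per 1000000 UMIs of the same barcodes in that library, and are compared between libraries and cells rather than between genes. The rule genes were high by construction: Cd3e, the epsilon chain of CD3, stood at 347 to 1682 CPM in the members and at 0.121 to 3.04 CPM in the other retained barcodes. Klrd1, the CD94 receptor chain of natural killer and activated CD8 T cells, was 52.6-fold above the other barcodes in its closest library. Genes that the rule did not use pointed the same way, as a description of the chosen barcodes. Ccl5, the chemokine RANTES, led them with 4160 to 11439 CPM in the members against 2.24 to 13.1 CPM elsewhere. Cd3d, the delta chain of CD3, stood at 510 to 857 CPM against 0.302 to 1.95 CPM. Ctsw, a protease of cytotoxic lymphocytes, stood at 222 to 532 CPM against 0.0889 to 1.29 CPM. Next in order of their lowest ratio came the adaptor Skap1, the receptor chain Il2rb, the homing receptor Cxcr6, the adaptor Lat, the protease Gzmb, the CD45 partner Ptprcap and Ms4a4b, with lowest ratios of 314 down to 188. Cd3e was detected in 75.0% to 89.2% of members but in 0% to 0.627% of fibro-adipogenic barcodes (2 or more UMIs of Pdgfra), whose median depth of 8114 to 9270 UMIs was higher.

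Each member was then placed by the receptor transcripts it held. The T gate required 2 or more UMIs of Cd3d, Cd3e and Cd3g together. The natural killer gate required none of these and 2 or more UMIs of Ncr1, Klrb1c, Klre1, Klra4, Klra7 and Klra8 together. The T gate took 20, 38, 16, 40 and 102 barcodes (frail 1, frail 2, control 1, control 2 and control 3, the order used throughout). The natural killer gate took 2, 7, 3, 4 and 7 barcodes, and 5 members entered neither gate. Within the T gate, CD8 transcripts without Cd4 marked 4, 11, 5, 20 and 3 barcodes, and Cd4 transcripts without CD8 marked 5, 11, 3, 8 and 6. Trdc marked 2, 4, 2, 2 and 77 barcodes. No T gate barcode held both coreceptors, and none with Trdc held either. The remaining 9, 12, 6, 10 and 16 T gate barcodes had no UMI of these genes, which at this depth does not show that the cells lacked them.

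**Figure D1:**
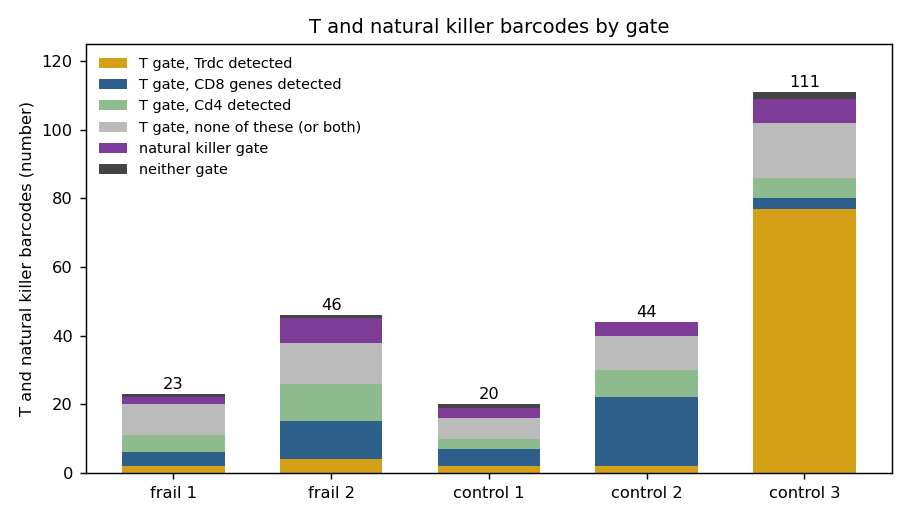
The bars give the number of T and natural killer barcodes in each library, split by gate, with the total on top. The Trdc barcodes fill most of the bar of control 3 and 2 to 4 barcodes of each other bar.

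The share of members among retained barcodes was 0.246%, 0.437%, 0.231%, 0.447% and 0.918%, or 0.342% ± 0.135 in frail (SD, n = 2) and 0.532% ± 0.351 in control (SD, n = 3). The range of the control libraries spans both frail values, and a two-sided exact permutation test of the group means gave p = 0.8. The smallest p these 5 libraries allow is 0.1. Without the Trdc barcodes of the T gate the shares became 0.225%, 0.399%, 0.208%, 0.426% and 0.281%, a frail minus control difference of 0.00677 percentage points (exact permutation p = 1), so the sign turned. Leaving out control 3 instead gave a difference of 0.00281 points. A count model with the retained barcodes as offset gave a log2 ratio of -0.65 for members (edgeR quasi-likelihood, adjusted p = 0.515 over 4 cell groups). The natural killer gate held 12% ± 4.61 of the members in frail and 10.1% ± 4.44 in control libraries (SD, n = 2 and n = 3, exact permutation p = 0.7, adjusted p = 0.8 over 7 shares). That difference also turned sign without control 3, to -0.0889 points.

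CD4 barcodes made up 25% and 28.9% of the T gate in frail libraries and 18.8%, 20% and 5.88% in control libraries, so the groups did not overlap. The exact permutation test gave p = 0.2 and an adjusted p of 0.7. With the Trdc barcodes left out of the denominator the CD4 shares were 27.8%, 32.4%, 21.4%, 21.1% and 24.0%, a difference of 7.90 points with an exact permutation p of 0.1, the smallest possible. After each member was thinned to 1000 UMIs only 0, 0, 1, 0 and 2 CD4 barcodes remained, too few to compare (a difference of -3.82 points). CD8 barcodes made up 20%, 28.9%, 31.3%, 50% and 2.94% of the T gate (exact permutation p = 0.8). Control 2 was highest and control 3 lowest, and both frail libraries lay between them. Foxp3, the factor that defines regulatory T cells, was detected in 2, 2, 0, 2 and 0 T gate barcodes. The 0 of 16 barcodes in control 1 allowed up to 20.6% and the 0 of 102 in control 3 up to 3.55% of barcodes with a Foxp3 UMI (exact binomial intervals at 95%, for counting error only). This is no limit on cells expressing Foxp3, since no library kept a Foxp3 barcode after thinning.

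Trdc was detected in 70.3% of the members of control 3 against 8.70%, 10.9%, 10.0% and 4.55% in the other 4 libraries. After thinning to 1000 UMIs the value of control 3 was 61.3% and the others were 2.27% to 10.0%. Fibro-adipogenic barcodes, which should lack the gene, held it at 0% to 0.884% at a median depth of 8114 to 9270 UMIs. Within the T gate, the Trdc share of control 3 was 75.5%, with an exact binomial interval of 66.0% to 83.5%. The frail and control means were 10.3% ± 0.372 and 31.0% ± 38.7 (SD, n = 2 and n = 3, exact permutation p = 0.8), and without control 3 the difference turned from -20.7 to 1.51 points. The excess was thus in 1 of the 3 control libraries, and the other 2 lay at 12.5% and 5%, beside 10% and 10.5% in the frail libraries.

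The 77 Trdc barcodes of control 3 held 413276 UMIs, and the genes below describe them after their values were seen, with no test. Trdv4, a variable segment of the delta chain, was detected in 76 of the 77, with 469 UMIs. Of the gamma segments, Trgv2 was detected in 28 barcodes with 50 UMIs, Trgv5 in 14 with 17 UMIs and Trgv6 in 1. Trgv2 stood at 121 CPM, against 16 to 67 CPM in the T gate without Trdc, where Trgv5 stood at 0 CPM. The constant segment Trgc1 was detected in 69. The alpha chain constant segment Trac was detected in 20 of the 77, at 70 CPM against 336 to 420 CPM in the T gate without Trdc. Beta chain transcripts were not missing: Trbc2, 1 of the rule genes, was detected in 87 and Trbc1 in 64 of the 111 members of control 3. Only 34 of these members were outside the 77, so most of the 77 held Trbc2 and a part held Trbc1. Variable segments lie far from the 3′ end that the kit reads, so a missing UMI says little. As background, mouse gamma delta T cells of the epidermis carry a receptor built from the segments here named Trdv4 and Trgv5, and Trdv4 also pairs with Trgv6 in other gamma delta T cells. The last 150 germline coding bases of Trdv4 (chr14:54075366-54075515, plus strand) and Trgv5 (chr13:19192576-19192725, plus strand), exonic in GRCm38 by the GENCODE vM21 annotation, are shown because Trdv4 was detected in nearly all of these barcodes and Trgv5 is its partner in the epidermal receptor. Capitals mark the germline start of the hypervariable loop CDR3, from its conserved cysteine codon.
Trdv4: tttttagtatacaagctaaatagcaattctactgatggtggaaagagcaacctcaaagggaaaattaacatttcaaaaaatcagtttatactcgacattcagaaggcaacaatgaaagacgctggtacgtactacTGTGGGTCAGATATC
Trgv5: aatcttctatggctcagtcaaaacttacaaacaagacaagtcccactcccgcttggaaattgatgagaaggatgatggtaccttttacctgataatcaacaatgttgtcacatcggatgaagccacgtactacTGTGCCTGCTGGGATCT

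Around this receptor the Trdc barcodes of control 3 differed from the T gate barcodes without Trdc in both directions. Fcer1g, the gamma chain shared by Fc and natural killer receptors, stood at 1614 CPM and was detected in 74 of 77, against 5 to 99 CPM in the T gate without Trdc across the 5 libraries. Cd7, a receptor of early T and natural killer lineages, stood at 1585 CPM against 56 to 110 CPM. The natural killer barcodes of all libraries together stood at 1850 CPM for Fcer1g and 351 CPM for Cd7, so high Fcer1g was shared with them. Ctla2a, a cysteine protease inhibitor, reached 5769 CPM against 436 to 840 CPM. Trat1, an adaptor of the T cell receptor complex, stood at 762 CPM against 9 to 43 CPM. Col27a1, a fibrillar collagen, was detected in 62 of the 77 at 544 CPM and at 0 CPM in the T gate without Trdc of every library. The actin-binding gene Avil was detected in 59 of them at 399 CPM against 0 to 5 CPM.

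The same barcodes held secreted and adhesion genes of resident lymphocytes. Xcl1, a chemokine for cross-presenting dendritic cells, stood at 723 CPM against 0 to 130 CPM. Areg, the epithelial growth factor amphiregulin, stood at 1004 CPM against 0 to 196 CPM. Itgae, the CD103 integrin that binds E-cadherin on epithelium, stood at 261 CPM against 4 to 54 CPM. Over the natural killer barcodes of all libraries Xcl1 stood at 309 CPM, Areg at 0 CPM and Itgae at 6.88 CPM. Il13, a type 2 cytokine, was detected in 31 of the 77 with 53 UMIs. The CD3 chains themselves were high, with Cd3e at 2272 CPM against 393 to 519 CPM.

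Several other T cell genes had few or no UMIs in them. Ccl5, the leading gene of the members as a whole, had 2 UMIs (5 CPM) in the 77 barcodes against 7509 to 11297 CPM in the T gate without Trdc. Ms4a4b had 1 UMI, and the inhibitory coreceptor genes Cd5 and Cd6 had 0 UMIs against 123 to 188 and 123 to 214 CPM. Ifng, encoding interferon gamma, had 0 UMIs against 90 to 978 CPM. Gzma, a serine protease of killer cell granules, had 0 UMIs against 0 to 352 CPM. It stood at 0 CPM in control 1 and 7.85 CPM in control 2, so its lack did not set the 77 apart from every library. Gzmb had 4 UMIs (9.68 CPM) against 118 to 314 CPM. Prf1, the pore-forming protein, had 193 UMIs (467 CPM), against 17 to 89.7 CPM in the T gate without Trdc. Over the natural killer barcodes of all libraries it stood at 763 CPM.

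**Figure D2:**
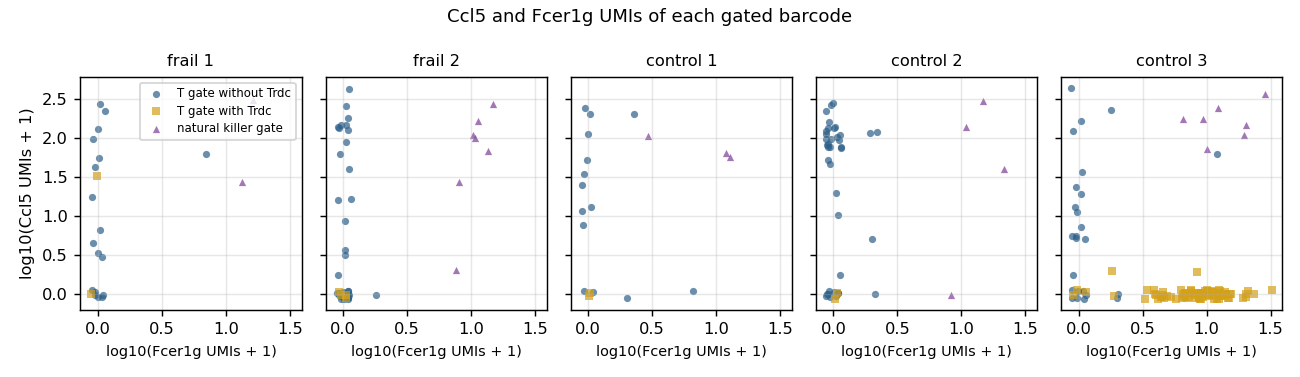
Each point is 1 gated member barcode, with its Fcer1g UMIs on the x axis and its Ccl5 UMIs on the y axis, both as log10 of the count plus 1 and moved by a small random amount so that equal counts do not hide each other. The Trdc barcodes of control 3 lie along the bottom with Fcer1g and almost no Ccl5, whereas most T gate barcodes without Trdc spread up the left edge.

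Transcripts of other cells were also present in control 3. Krt14 was detected in 6 of the 77 Trdc barcodes (7.79%), in 24.1% of the fibro-adipogenic barcodes and in 28.5% of the macrophage barcodes of that library, and 648 retained barcodes held 5 or more Krt14 UMIs. Of the 15 member barcodes of all libraries with 20 or more UMIs of myofibre, mural, keratinocyte, neutrophil or red cell markers or of Cd74, 9 were among these 77. The part of keratinocytes or their RNA in the number of Trdc barcodes was not tested.

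The 10 Trdc barcodes of the other 4 libraries held 135 Trdc UMIs and shared receptor segments with those of control 3. Trdv4 was detected in 0 of 2, 4 of 4, 2 of 2 and 1 of 2 of them (frail 1, frail 2, control 1 and control 2), with 19 UMIs, and Trgc1 had 60 UMIs (1069 CPM against 699 CPM in control 3). Other genes differed. None of the 10 held Fcer1g, Itgae, Xcl1 or Areg. Il17a, encoding interleukin 17A, had 45 UMIs in 3 of the 10: 30 in 1 barcode of frail 2, 3 in 1 of control 1 and 12 in 1 of control 2. In the 77 barcodes of control 3 it had 4 UMIs. Blk, a kinase of interleukin 17 producing gamma delta T cells, had 20 UMIs in 6 of the 10 and 2 UMIs in 1 of the 77. Il7r, the interleukin 7 receptor, stood at 1924 CPM over the 10 barcodes and at 85 CPM over the 77. With 2 to 4 such barcodes per library no comparison of frail with control was made.

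The other gates are described by effector genes. Gzma is 1 of the rule genes, so its level in a gate is partly set by the choice of members. In natural killer barcodes it stood at 8559, 5225, 3560, 6949 and 15481 CPM, and it was detected in 15 of the 23. In CD8 barcodes it was detected in 5 of 43 and in CD4 barcodes in 1 of 33. Tyrobp, which neither the rule nor the gates used, the signalling adaptor of activating natural killer receptors, stood at 1860 to 2306 CPM in the natural killer gate of every library and at 16 and 5.06 CPM over the CD8 and CD4 barcodes of all libraries. Ccl5 was detected in 40 of 43 CD8 barcodes, 22 of 23 natural killer barcodes and 19 of 33 CD4 barcodes. In CD4 barcodes it stood at 1385, 1547, 2343, 17500 and 16904 CPM, but 406 of the 475 UMIs of control 3 were in 1 of its 6 barcodes. In control 2, 5 of 8 CD4 barcodes held Ccl5 and the highest held 250 of the 739 UMIs. Ctla4, an inhibitory receptor of regulatory and activated T cells, had 1, 20, 1, 7 and 1 UMIs in CD4 barcodes and 1, 4, 3, 1 and 0 UMIs in CD8 barcodes, so most of its CD4 UMIs were in frail 2.

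The CD8 barcodes were not alike across libraries. Ccr7, the lymph node homing receptor of naive and central memory T cells, was detected in 0 of 4, 4 of 11, 1 of 5, 17 of 20 and 0 of 3 CD8 barcodes. Of its 130 UMIs in CD8 barcodes, 107 were in control 2. Lef1, a transcription factor of naive T cells, had 1, 22, 0, 26 and 1 UMIs there. Control 2 thus supplied both the most CD8 barcodes and most of the Ccr7 transcripts, while Lef1 was shared with frail 2. Gzmk, a granzyme of age-associated CD8 T cells, had 6, 7, 5, 2 and 5 UMIs in the CD8 barcodes.

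**Figure D3:**
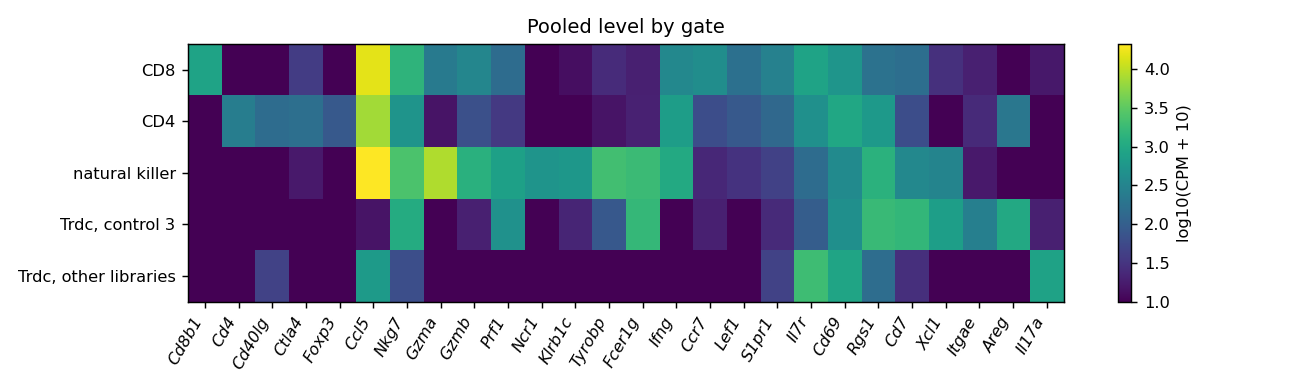
Rows are the gates, pooled over all libraries except that Trdc barcodes are split into control 3 and the other 4. Columns are genes and the colour gives log10 of CPM plus 10. Gzma, Ncr1 and Tyrobp are brightest in the natural killer row, Xcl1, Itgae and Areg in the Trdc row of control 3, and Il17a in the last row.

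The frail and control libraries were compared over the UMIs summed per library from the member barcodes. No gene passed an adjusted p of 0.05 in edgeR's quasi-likelihood test, 0 of 4758 tested (0%), and the smallest adjusted p was 0.810. At an unadjusted p under 0.05 there were 244 genes (5.13%), 75 higher and 169 lower in frail libraries. DESeq2 called 13 of the 4815 genes to which it gave an adjusted p (0.27%), and 0.839% of all genes it fitted had an unadjusted p under 0.05. These were Ifit1 and Klra4, higher in frail, and Cd74, H2-Eb1 and 9 myofibre genes, lower in frail. With the Trdc barcodes of the T gate left out edgeR again called none, 0 of 3065 (0%), with 124 at an unadjusted p under 0.05 (4.05%). Leaving out control 3 gave 3 calls, Ifit1, Isg15 and Klra4, all higher in frail, with Ifit1 and Klra4 having the largest differences. Leaving out control 1 gave 12 calls, all muscle genes lower in frail, and leaving out control 2 gave 3, H2-Ab1, H2-Eb1 and Il1b, lower in frail. Differences are therefore given below as values, and no gene is called higher or lower with frailty on this test. Of all tested genes, 10.2% had both frail libraries above all 3 control libraries in CPM and 9.6% had both below them, which is the background for the counts that follow.

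Interferon response genes were among those with the largest differences. Ifit1, an interferon-induced protein that binds foreign RNA, stood at 489 and 223 CPM in frail and at 31.5, 13.5 and 72.6 CPM in control libraries. Both frail libraries were above all 3 controls, with a log2 difference of 3.02 ± 0.57 (SE, adjusted p = 0.884 in edgeR). With the Trdc barcodes left out the values were 520, 240, 34.8, 14.1 and 229 CPM, with control 3 just below frail 2, and the log2 difference was 2.00. Its UMIs came from few barcodes. In frail 1, 48 of 69 Ifit1 UMIs were in 3 of the 5 CD4 barcodes, and in frail 2, 58 of 67 were in 3 of the 11. The CD4 barcodes of the controls held 0, 1 and 0 UMIs, and control 3 held 40 of its 43 in 4 barcodes without coreceptor. A sum per library does not tell more cells with the transcript from more transcript per cell. Without control 3 in the fit Ifit1 passed the threshold, with a log2 difference of 4.01 (edgeR adjusted p = 0.00249).

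Isg15, an interferon-induced ubiquitin-like modifier, stood at 652, 333, 39.4, 70.7 and 250 CPM. Frail 1 was highest, and control 3 lay between frail 2 and the other controls. In frail 1, 14 of 23 members held Isg15, and 31 of the 92 UMIs were in 1 barcode. Control 3 stood at 480 CPM without the Trdc barcodes and lay between the frail libraries. Irf7, the transcription factor that amplifies type I interferon, stood at 213, 180, 70.9, 80.8 and 55.7 CPM, a log2 difference of 1.47 ± 0.36 (SE, edgeR adjusted p = 0.884). It stood at 219, 193, 78.3, 84.9 and 106 CPM without the Trdc barcodes, so the groups stayed apart. Ifi27l2a, an interferon-induced membrane protein, stood at 879, 682, 213, 434 and 196 CPM, and the frail libraries were again above the controls without the Trdc barcodes (904 and 734 against 235 to 457 CPM). In frail 1, 9 of 23 members held Irf7 and 20 held Ifi27l2a. The highest barcode there held 10 of the 30 Irf7 UMIs and 41 of the 124 Ifi27l2a UMIs.

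Of the 30 listed type I interferon response genes 21 were tested, and 17 had a positive log2 difference. Their median was 0.60, beside -0.03 over all tested genes, and 9 of the 21 had both frail libraries above all controls, beside 10.2% of all genes. Among 18 tested genes 13 were positive without the Trdc barcodes, with a median of 0.42 beside 0.00052 over all genes, and 6 of 18 did not overlap, again beside 10.2% of all genes. The summed level of the list was 3312 to 4701 CPM in frail and 1785 to 2309 CPM in control libraries, or 3485 to 4852 against 2193 to 3167 CPM without the Trdc barcodes. None of the 21 passed the adjusted threshold. Bst2, Ifi47, Iigp1 and Slfn5 had negative values.

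Genes of this response often carry a GAAANNGAAA element, in which N is any base, that interferon regulatory factors bind. It was searched on both strands (TTTCNNTTTC on the other) in the 250 bases before each annotated start, from RefSeq promoters of GRCm38.p6. It occurred in 936 of 27025 promoters (3.46%) and in 146 of the 3773 tested genes with a promoter (3.87%). Of the 22 interferon list genes with a promoter 13 held it (59.1%), a description of a list already named for this response. The promoters of Ifit1, Isg15, Irf7, Psmb9 and Tap1 were searched for display. Only those of Ifit1 (chr19:34640639-34640888, plus strand) and Isg15 (chr4:156200819-156201068, minus strand) held a match, and these are shown. Capitals mark the matches, which begin 104 and 85 bases before the start in Ifit1 and 78, 72 and 66 bases before it in Isg15, where they overlap. A match is not shown to be a bound site.
Ifit1: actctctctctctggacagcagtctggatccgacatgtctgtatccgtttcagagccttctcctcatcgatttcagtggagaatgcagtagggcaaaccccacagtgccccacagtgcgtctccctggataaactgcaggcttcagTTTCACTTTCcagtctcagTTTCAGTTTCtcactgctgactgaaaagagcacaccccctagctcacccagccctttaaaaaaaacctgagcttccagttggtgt
Isg15: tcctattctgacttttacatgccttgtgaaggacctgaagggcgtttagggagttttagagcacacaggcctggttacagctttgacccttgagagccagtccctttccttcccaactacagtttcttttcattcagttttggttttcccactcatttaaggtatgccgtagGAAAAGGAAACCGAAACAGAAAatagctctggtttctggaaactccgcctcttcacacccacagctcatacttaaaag

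Genes of MHC class I presentation, the targets of interferon signals that display peptides to CD8 T cells, also mostly had higher values in frail libraries. Of 16 listed genes 15 were tested and 14 had a positive log2 difference, with a median of 0.66 beside -0.03 over all genes. Both frail libraries were above all controls for 10 of the 15, beside 10.2% of all genes, and for 7 of the 15 without the Trdc barcodes, where the median was 0.39. H2-T23, the nonclassical molecule Qa-1 that engages Klrd1 receptors, stood at 347, 273, 189, 172 and 160 CPM, a log2 difference of 0.80 ± 0.31 (SE, edgeR adjusted p = 0.927). Psmb9, a catalytic subunit of the immunoproteasome, stood at 234, 210, 150, 67.3 and 84.4 CPM, and its log2 difference was 1.18, or 0.92 without the Trdc barcodes. B2m, the light chain of every class I molecule, stood at 2637, 2275, 2270, 2111 and 1522 CPM. Frail 2 and control 1 were nearly equal for B2m, and control 3 was low. B2m of control 3, without the Trdc barcodes, stood at 2621 CPM, beside 2569 and 2303 CPM in frail libraries, so its separation rested on those barcodes. The H2-Q genes are near-identical copies whose reads may be shared, and their values are uncertain.

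**Figure D4:**
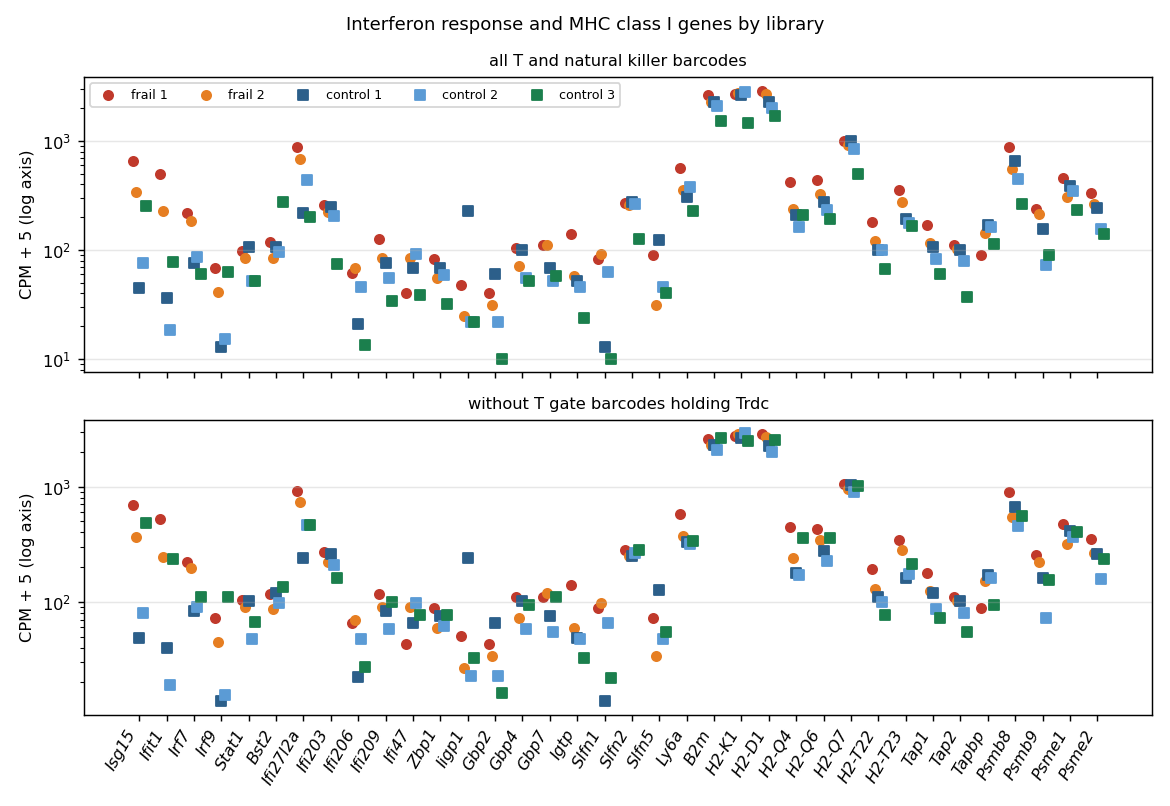
Points give the CPM plus 5 of each tested interferon response and MHC class I gene in each library on a log axis, for all members (top) and without the T gate barcodes holding Trdc (bottom). The red and orange frail points lie above the 3 control squares for 9 interferon and 10 class I genes in the top panel, and the green squares of control 3 move up in the bottom panel.

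Ifng, the interferon produced by T and natural killer cells themselves, stood at 773 and 885 CPM in frail and at 276, 87.5 and 319 CPM in control libraries, a log2 difference of 1.88 ± 0.45 (SE, edgeR adjusted p = 0.884). Once the Trdc barcodes of control 3, which held none, were left out, it stood at 1054 CPM, above both frail libraries (821 and 953 CPM). The separation of the groups for Ifng thus held only with those barcodes in the sum. In frail 2, 105 of 266 Ifng UMIs were in the 7 natural killer barcodes, all of which held it. Klra4, the activating receptor Ly49D of natural killer cells, stood at 113, 170, 0, 3.37 and 20.2 CPM, a log2 difference of 3.62 ± 0.62 (SE, edgeR adjusted p = 0.810). Klra4 is 1 of the genes that define the natural killer gate, and all its 80 UMIs were in that gate, in 1 of 2, 3 of 7, 0 of 3, 1 of 4 and 2 of 7. The Trdc barcodes of control 3 held 0 Klra4 UMIs, so including them lowered its CPM in that library. Klra4 passed the threshold without control 3, with a log2 difference of 5.56 (edgeR adjusted p = 0.00249). The Klra genes are a family of close copies, so reads of Klra4 and of the pseudogene Klra13-ps, at 42.5, 96.4, 0, 13.5 and 10.1 CPM, may belong to relatives.

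Of 11 tested genes of cytotoxic granules and killing 3 had a positive log2 difference, and the median was -0.50. Both frail libraries were below all controls for 2 of the 11, beside 9.6% of all genes. Cst7, an inhibitor of granule proteases also known as cystatin F, stood at 21.3 and 59.9 CPM in frail and at 118, 138 and 172 CPM in control libraries, a log2 difference of -1.73 ± 0.45 (SE, edgeR adjusted p = 0.884). Control 3 stood at 72.5 CPM without the Trdc barcodes, above the frail libraries (22.6 and 60.9 CPM). In that set 3 of 11 genes of the list were below all controls, beside 7.6% of all genes. Gzmb stood at 277, 163, 244, 246 and 228 CPM and Gzma at 638, 934, 489, 663 and 1109 CPM, with overlapping groups. Ccl5 stood at 9011, 8480, 8378, 11439 and 4160 CPM, and its log2 difference of 0.06 became -0.39 without the Trdc barcodes. Of the 20 tested genes of the T cell receptor and its signalling 9 were positive, and their median was -0.06 beside -0.03 over all genes.

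Over all tested genes 47.0% were positive, and 10.2% were above all controls in both frail libraries, with or without the Trdc barcodes for the latter share. Heat shock genes had 10 of 14 positive with 5 above all controls, but 0 of 13 were above them without the Trdc barcodes. Hspa1a, an inducible chaperone with a near-identical copy in Hspa1b, stood at 1460.5, 589, 481, 209 and 574 CPM, so that frail 1 was high and frail 2 was close to control 3. All 9 tested cell cycle genes were positive, with a median of 0.69, or 8 of 8 with a median of 0.27 without the Trdc barcodes. Mki67, the proliferation marker, had 15, 16, 7, 0 and 39 UMIs, of which 13, 9, 7, 0 and 17 were in a single barcode of each library. Immediate early genes had 14 of 19 positive with a median of 0.25, and 3 of the 19 were above all controls, near the 10.2% of all genes. Of 13 targets of NF-kappa B, 6 were positive, 1 was above all controls and 4 were below, beside 9.6% of all genes below. Without the Trdc barcodes 9 were tested, of which 4 were positive, 1 was above and 1 was below, beside 7.6% of all genes below. Among the 4 below in all members was Cd83, a surface marker of activated lymphocytes and dendritic cells. Cd83 had 0 and 0 UMIs in frail and 11, 7 and 28 in control libraries. Against a floor of 3 counts over the frail group it was at least 6.66-fold lower, but 10 of the 11 UMIs in control 1 and 16 of the 28 in control 3 were in 1 barcode each. Gdf15, a stress hormone, had 0, 0, 0, 1 and 2 UMIs in the members.

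Marker transcripts of other cell types were also found in the members, at levels that differed between the libraries. All 10 tested myofibre markers were lower in both frail libraries, beside 9.6% of all genes, with a median log2 difference of -6.36 and a summed level of 28 to 70 CPM against 544 to 8199 CPM. Without the Trdc barcodes the 5 tested were again all lower, beside 7.6% of all genes, with a median of -5.29. The summed level was then 30 to 64 CPM against 548 to 4669 CPM, and control 3 stood at 602 CPM. An unadjusted edgeR p under 0.05 was reached by 10 markers in all members and by 0 without the Trdc barcodes. Acta1, the skeletal muscle actin, had 1, 4, 13, 297 and 1178 UMIs in the members, of which 193 in control 2 were in 1 barcode and 645 and 476 in control 3 in 1 barcode each. Its detection in members, 4.35%, 8.70%, 50%, 84.1% and 40.5%, followed the order of fibro-adipogenic barcodes, 5.87%, 14.8%, 56.9%, 90.0% and 49.1%. Hba-a1, a haemoglobin chain with a near-identical copy, stood at 14.2, 3.33, 63.1, 64.0 and 204 CPM. Of its 121 UMIs in control 3, 69 and 33 were in 1 barcode each, and 10 of 19 in control 2 were in 1 barcode. Summed macrophage markers stood at 149 to 249 CPM against 560 to 599 CPM, and no listed macrophage or myofibre marker was at 0 in all libraries. Without the Trdc barcodes the macrophage sums were 151 to 258 CPM in frail and 452 to 619 CPM in control libraries. Apoe, a lipid carrier of macrophages, stood at 106, 69.8, 158, 316 and 319 CPM. Of the MHC class II genes, 226 of 241 Cd74 UMIs in control 1 and 340 of 413 in control 3 were in 1 barcode each. The genes with the smallest p among those lower in frail libraries also included Mpp7, a scaffold protein, at 28.4, 16.6, 110, 67.3 and 96.2 CPM. In control 1, 9 of its 14 UMIs were in 1 barcode. Tmem33, a membrane protein of the endoplasmic reticulum, was another, at 7.09, 13.3, 55.2, 57.2 and 59.1 CPM. The part of marker transcripts of other cell types in the differences above was not tested beyond leaving out the 15 barcodes richest in them. Without those barcodes 0 of 4649 genes were called, the smallest adjusted p was 0.0511 (edgeR), and Ifit1 had a log2 difference of 3.60.

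**Figure D5:**
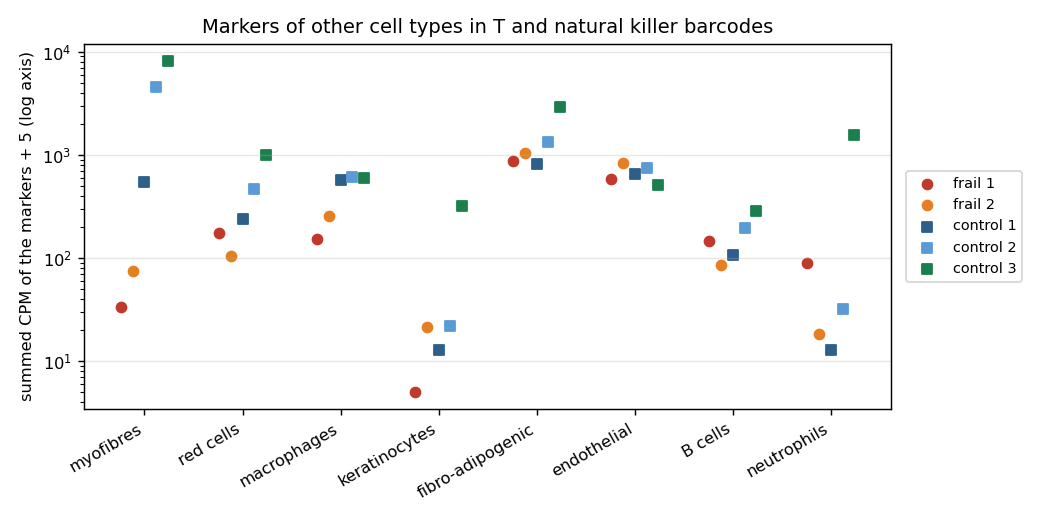
Points give the summed CPM of marker genes of 8 other cell types, plus 5, in the T and natural killer barcodes of each library on a log axis. For myofibre, red cell and macrophage markers both frail points lie below every control point. Keratinocyte and neutrophil markers were highest in control 3, but single barcodes weighed on both sums. In that library 437 of 439 UMIs of the neutrophil gene S100a8 were in 1 barcode, as were 140 of 152 of the keratinocyte gene Krt17. Without the Trdc barcodes the neutrophil sum of control 3 was 55.8 CPM, below frail 1 at 75.3 CPM. Its keratinocyte sum was still the highest, at 530 CPM.

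The differences were set against those of macrophage barcodes (more than 4 C1q UMIs and fewer than 3 of the 8 rule genes) in 1 model with a term for cell type by group. That term was called for 0 of 10634 genes (0%), the lowest adjusted p being 0.117 (edgeR), and 508 genes at an unadjusted p under 0.05 (4.78%). Ifit1 stood at 173, 24.1, 16.1, 44.8 and 100 CPM in macrophages, where the groups overlapped, and its log2 difference was 2.82 ± 0.63 larger in the members (SE, adjusted p = 0.947). Irf7 stood at 84.4, 31.1, 59.2, 63.4 and 55.8 CPM in macrophages, and the log2 difference was 1.71 ± 0.45 larger in the members (SE, edgeR adjusted p = 0.947). The term was called for 3 genes without the Trdc barcodes, for 7 with at least 4 rule genes required, and for 3, 1, 3, 27 and 15 genes when each library was left out in turn, so the count of 0 depended on the libraries and barcodes used.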

How the data were processed

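The 5 single-cell libraries were read as raw UMI counts per gene and barcode, as the authors deposited them after the tools bcl2fastq 5.01, Cell Ranger 7.0.0 and Seurat 4.1.2 and the build GRCm38, per the submitters' processing notes. The authors' filter on barcodes is not given in the sources used here. All 55357 features carried symbols, and 52081 of them matched GENCODE vM21. Members were chosen by detected marker genes, so the values of those genes are only described. They stayed in the edgeR fit, and 9 of the 14 genes of the rule were among the tested genes of all members. The members and gene lists were chosen with earlier results of these data known. Groups came from the labels.

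UMI counts were summed per library over member barcodes and tested with edgeR 4.0.16 (TMM, filterByExpr, robust quasi-likelihood, R 4.3.3) with Benjamini-Hochberg adjustment at 0.05 over all tested genes. DESeq2 1.42.0, RLE factors, no count filter, other member rules, Scrublet removal (scanpy 1.11.5), single gates, thinning to 1000 UMIs and leaving out each library were alternatives. Removal of Trdc barcodes and of mixed barcodes was chosen after seeing the data. Shares were compared by exact permutation over the libraries (scipy 1.17.1). CPM in the text are plain, without TMM. Named genes were filled to 5 per direction by smallest p among genes with both frail libraries on 1 side and a mean log2 CPM of at least 5. They also include list members that passed and, for each list, the median and highest member, and the 20 genes with the largest lowest ratio of members to other barcodes. Genes of the Trdc barcodes, and of lists beyond this rule, were chosen after their values were seen. The edgeR step was tested on simulated data. A gate describes detected UMIs and is not a proven lineage, and counts of 2 to 20 barcodes per gate limit the precision. Doublets were scored with Scrublet at 0.4% per 1000 barcodes, which removed 0, 0, 0, 1 and 2 members.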

Additional observations from a re-analysis of the deposited data

How the results depend on the processing

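No gene was called in members with RLE factors, with at least 4 rule genes, with at most 5% mitochondrial UMIs, after Scrublet removal, in either gate alone, without the Trdc barcodes or without mixed barcodes. Without the low-count filter edgeR called 64 of 17043 genes, and DESeq2 called 13, or 3 without the Trdc barcodes. Leaving out each library gave 0 to 12 calls, 12 when control 1 was omitted and 3 for each other control, and removing the Trdc barcodes together with control 3 gave 3. A replicate block, pairing libraries of equal number, gave 12 calls. Control 3 has no frail library of its number, so it added nothing to the frail against control difference in that fit. Deviations of equal numbers correlated at -0.0585 and 0.110, so the numbers are not shown to pair the mice. The cell type by group term gave 11 calls without the filter, 7 with at least 4 rule genes, 3 without the Trdc barcodes and 1 to 27 on leaving out each library, the highest without control 2 and the next, 15, without control 3. Without the Trdc barcodes the frail minus control difference turned to 0.00677 points for the member share, -2.50 for the natural killer share and 2.74 for the T share. Thinning turned the CD8 share to 7.76 points, on 2, 8, 2, 5 and 0 remaining CD8 barcodes, and the CD4 share to -3.82, on 0, 0, 1, 0 and 2, so neither turn says how stable the shares are. On leaving out each library, the member share ranged from -0.341 to 0.00281 points, turning when control 3 was omitted. The natural killer share ranged from -1.44 to 5.08, turning without frail 2 and, at -0.0889, without control 3. The CD8 share ranged from -16.2 to 7.38, turning at 0.884 without frail 1 and at its highest without control 2. The Trdc share ranged from -33.7 to 1.51, positive when control 3 was omitted. Over 32 single genes, 527 alternative values kept their sign and side of the threshold, 30 newly passed it and 10 turned sign. Those 10 were B2m at -0.12 and Hspa1a at -1.61 in the natural killer gate alone, Gzmb at 0.15 without frail 2 (-0.51 to 0.15 over libraries left out), and Ccl5 at -0.25 with the replicate block, -0.017 in the T gate, -0.39 without the Trdc barcodes (-0.38 in DESeq2), -0.36 also without mixed barcodes, -0.27 without control 3 (-0.27 to 0.49 over libraries left out) and -0.30 without both. The cause of these turns was not tested. The 2 to 20 barcodes of most gates limit every share.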
